A study of Mus musculus with 10 samples.

Results

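The first day of chemical reprogramming was described by setting single cells collected on day 1 (d1) against mouse embryonic fibroblasts collected on day 0 (d0). Cells were chosen by the time point in their names and by a minimum of 4000 detected genes, which kept 40 of 40 d1 cells and 72 of 84 d0 cells, or 112 of the 670 cells kept over the whole course. The d0 cells were fibroblasts (MEFs) grown from ICR mouse embryos after the head, limbs and viscera had been taken off, and they had received no compound. The d1 cells were MEFs one day into C6FAE, a cocktail of CHIR99021 (C), RepSox (6), Forskolin (F), AM580 (A) and EPZ004777 (E) that leads over the whole course to XEN-like cells, which resemble the extraembryonic endoderm. The paper names C6FAE for this course in its results, whereas the recipe in its methods also holds valproic acid. The cocktail was given in a reprogramming medium that also brought serum replacement, basic FGF and beta-mercaptoethanol. Compounds, medium, time in culture and library therefore cannot be told apart in this comparison. Single cells were picked by hand, and RNA was counted per gene and cell by UMIs, short random tags given to each molecule before amplification.

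The compounds act on pathways with well known target genes. CHIR99021 inhibits GSK3, the kinase that marks beta-catenin for destruction, so that beta-catenin can drive genes with TCF and LEF factors. Forskolin activates adenylyl cyclase, and the cAMP made by this enzyme leads to CREB-bound genes. AM580 is an agonist of retinoic acid receptors, RepSox blocks the TGF-beta type I receptor, which in fibroblasts sustains collagen and contractile genes, and EPZ004777 inhibits Dot1l, a histone methyltransferase. In cultured fibroblasts, actin tension and spreading feed the factors SRF and YAP, whose target genes are high on stiff plastic.

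The series lists 10 batches of cells, and cell names give a time point and a running number but no batch and no barcode. Each day was therefore 1 sample without replicates, no test between the days was made, and shared barcodes were not counted. All intervals are 95% intervals of counting error alone, by the exact Poisson method for sums of UMIs and by the Clopper-Pearson method for percentages of cells. Where no cell had a UMI, the limit given is instead 3 cells of the total, and it bounds cells with a UMI, not cells that express the gene. Depth ran from 49225 to 3679274 UMIs per cell at d0 with a median of 344196, and from 56522 to 2879657 with a median of 749158 at d1. The median number of detected genes was 6720 at d0 and 7763 at d1, and the median number of gene UMIs per ERCC spike-in UMI was 29.5 at d0 and 37.8 at d1. Because the d1 cells were deeper, values are also given after each cell had been thinned to 50000 UMIs, which 71 d0 cells and 40 d1 cells allowed. Markers of other cell types were sparse on both days. *Pecam1* and *Cldn5* (endothelium), *Cdh1* and *Esrp1* (epithelium), *Adgre1*, *C1qa*, *C1qb* and *Tyrobp* (macrophages), *Myf5* and *Pax7* (muscle precursors) and *Olig2* and *Gfap* (glia) had no UMI in any d0 or d1 cell. Summed muscle markers had a median of 39.95 CPM at d0 and 61.5 CPM at d1, with 1 d0 cell at 28893 CPM, and endothelial markers had medians of 8.96 and 28.3 CPM. Macrophage markers had medians of 1.00 and 1.94 CPM, epithelial markers 9.98 and 18.2 CPM, and neural and glial markers 0 and 0.489 CPM, with highest sums of 180, 413 and 1321 CPM at d0 and of 125, 1040 and 91.4 CPM at d1. Their part in the results was not tested. Of 8 erythroid markers, 5 had no UMI, and the highest sum in a cell was 215 CPM at d0 and 34.3 CPM at d1.

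The level of a gene on a day was the mean over cells of log2(CPM + 1), where CPM are UMIs per 1000000 UMIs of the cell without spike-ins, and the difference is d1 minus d0 on this log2 scale. Of 23197 genes, 9441 had a mean of at least 1 on either day and were kept. A gene is called higher or lower here when its difference passed 1, which is a rule of size and not a test. By this rule 1822 genes, 19.3% of the genes kept, were higher at d1 and 431, or 4.57%, were lower. Counts of list members given below are to be read against these shares. Past a difference of 2 there were 200 higher and 102 lower genes, and past 3 there were 18 and 14. The median difference of all genes kept was 0.433, and the differences given below are to be read against this shift. With this median taken off, 705 genes were higher and 894 lower. The shift was not uniform, with a median of 0.636 for genes whose larger daily mean was from 3 to 5 and 0.254 from 7 up. It was 0.013 when the UMIs of all cells of a day were summed, and 0.015 with the log of the mean CPM. These measures kept 12452 and 12471 genes, so they do not cover the same genes as the 9441. With at least 6000 detected genes per cell the shift was 0.254. After thinning, with a median of 0.373 over 8321 genes kept, 19.9% were higher and 6.75% lower, which is 1654 and 562 genes. The share of calls that were higher was 80.9% by the mean of logs, 74.6% after thinning, and 47.4% when the UMIs of all cells of a day were summed first. By all 3 of these measures together 435 of the 9441 genes kept were higher and 351 lower. Thus 351 of 431 lower genes but 435 of 1822 higher genes kept their call. No gene was past the limit in opposite directions before and after thinning.

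**Figure D1:**
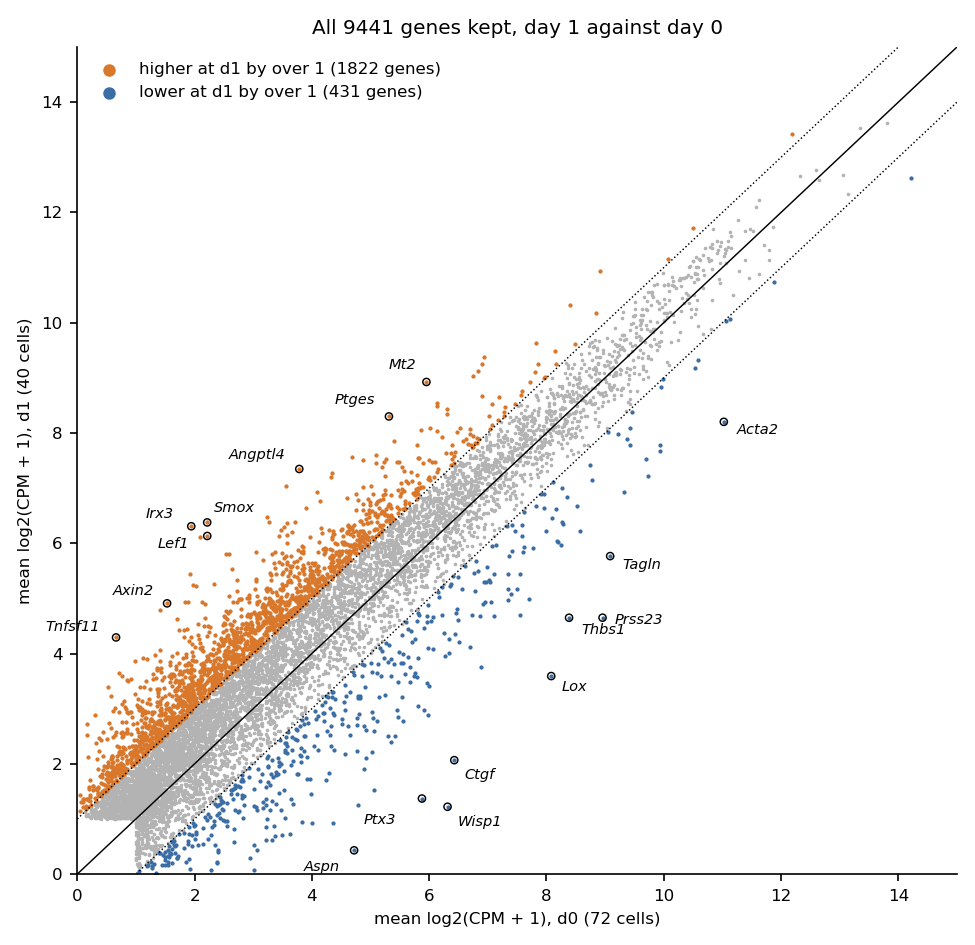
Mean log2(CPM + 1) of the 9441 genes kept at d0 (x axis, 72 cells) and d1 (y axis, 40 cells), with 1822 genes higher by over 1 in orange and 431 lower by over 1 in blue. The solid line marks equal levels and the dotted lines a difference of 1, and the grey cloud of the other genes lies slightly above the solid line, with a median difference of 0.433.

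Among the 20 genes with the largest differences were transcription factors, secreted ligands and surface proteins. *Irx3*, a homeobox transcription factor of patterning (ENSMUSG00000031734, chromosome 8, 94322428 to 94325553 on mm9, minus strand), came first. Over cells its level had a lowest value of 0, a median of 2.78 and a highest value of 55.7 CPM at d0, and 2.28, 93.7 and 355 CPM at d1. The d1 values lay above the highest d0 cell in 31 of 40 cells, and 230 UMIs (interval 201 to 262) at d0 stood against 4869 (4733 to 5008) at d1. Its difference was 4.36, and 4.88 after thinning. *Smox*, a polyamine oxidase, followed at 4.16, with means of 9.17 CPM at d0 and 116 CPM at d1. *Tmem100*, a membrane protein known as a BMP target in endothelium, differed by 4.02, and 25 d1 cells lay above every d0 cell. *Tnfsf11*, which encodes the cytokine RANKL, had a median of 0 CPM at d0 and 19.1 CPM at d1, with UMIs in 34.7% of d0 cells and 90% of d1 cells and a difference of 3.63. *Angptl4*, a secreted inhibitor of lipoprotein lipase, went with a difference of 3.56 from a median of 17.3 CPM to one of 168 CPM. *Itga6*, an integrin subunit that binds laminin, differed by 3.52, *Gpc1*, a heparan sulphate proteoglycan, by 3.25, and *Jarid2*, an accessory subunit of Polycomb complex 2, by 3.19. *Ptges*, the prostaglandin E synthase, had medians of 42.7 and 364 CPM and *Mt2*, a metal-binding metallothionein, of 61.9 and 577 CPM, and in each 27 d1 cells were above every d0 cell.

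In the other direction the largest difference was that of *Wisp1*, and secreted proteins, a cofactor and a motor protein followed. *Wisp1* (ENSMUSG00000005124), a secreted matricellular protein of the CCN family, ranged from 0 to 881 CPM at d0 with a median of 113, and from 0 to 84.1 CPM at d1 with a median of 0.174. All 40 d1 cells were below the d0 median, 6872 UMIs (6710 to 7036) stood against 153 (130 to 179), and the difference was -5.09. *Ptx3*, a soluble pattern recognition protein, differed by -4.51 and *Prss23*, a secreted protease, by -4.31. *Aspn*, a small leucine-rich proteoglycan, had 6123 UMIs at d0 and 20 at d1, with UMIs in 72.2% and 30% of cells. *Lgals9*, a galectin, had medians of 55.6 CPM at d0 and 0.993 CPM at d1. *Vgll3*, a cofactor of TEAD factors, had medians of 72.03 and 0.665 CPM, and *Kif1a*, a kinesin motor, 43.5 and 0 CPM. Their differences were -3.53, -3.53 and -3.43.

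**Figure D2:**
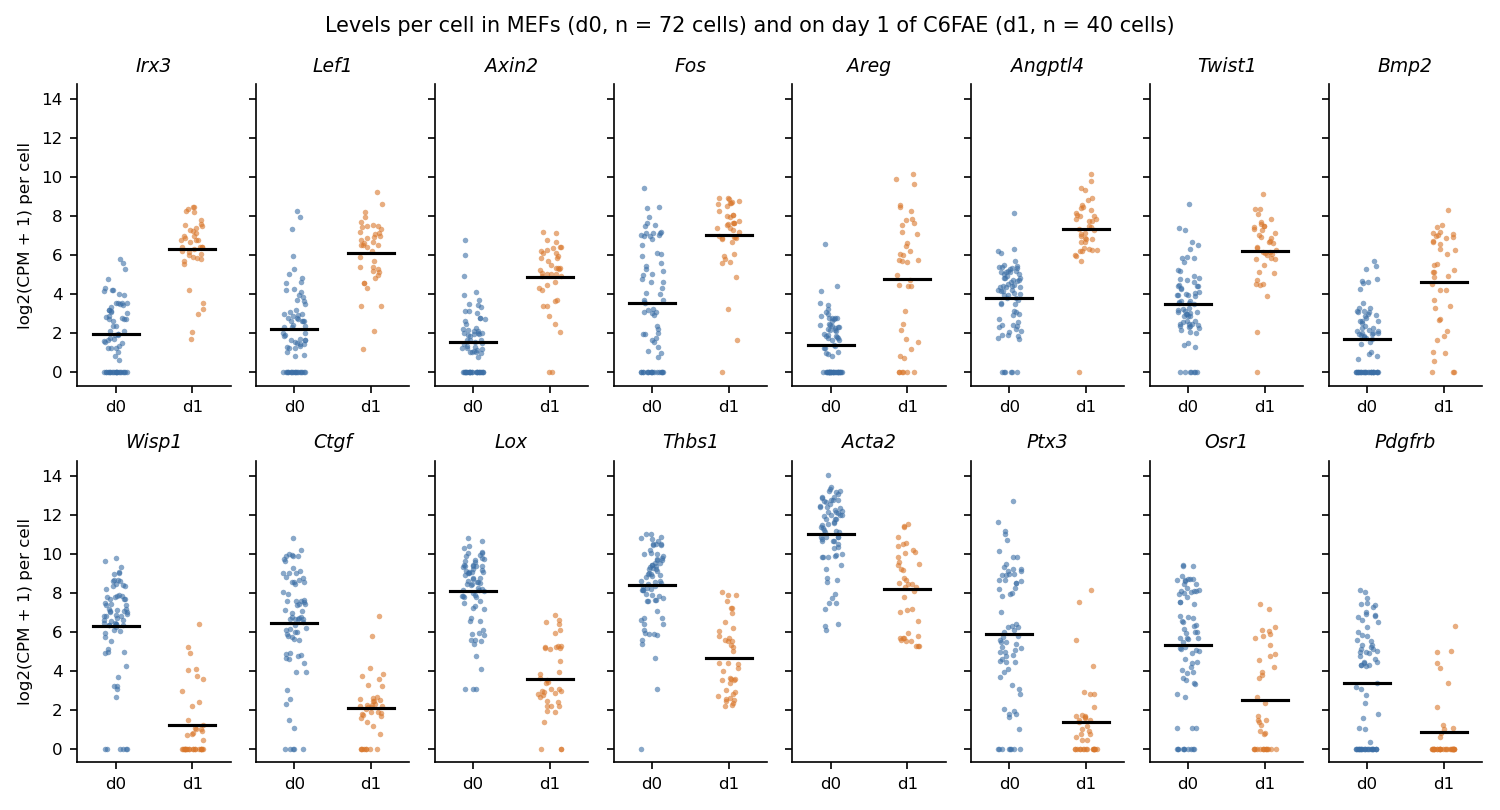
log2(CPM + 1) in each cell (y axis) at d0 (blue, 72 cells) and d1 (orange, 40 cells) for 8 genes higher at d1 (upper row) and 8 lower at d1 (lower row), with points spread sideways for visibility and a bar at the mean. The groups overlap in every panel, but 31 d1 cells lie above all d0 cells for *Irx3* and all 40 d1 cells lie below the d0 median for *Wisp1*, *Lox* and *Thbs1*.

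The differences at both ends were also counted cell by cell. For the 20 genes at the upper end, every d1 cell was above the d0 median in at least 15, with a median of 19. For the 20 genes at the lower end every d1 cell was below the d0 median in at least 18. Conversely, each of the 72 d0 cells was below the d1 median in at least 15 of the 20 upper genes. For the 20 lower genes the d0 cells were less uniform, with a lowest count above the d1 median of 10, a median of 17 and 60 of 72 cells at 15 or more. These genes had been ranked on the same cells, so the counts describe the spread and are no separate evidence.

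Genes of the cAMP and CREB response were mostly higher. CREB binds the cAMP response element, and its targets include early transcription factors, growth factors and phosphodiesterases, the enzymes that break down cAMP. Of 30 genes listed, 20 were kept, of which 12 were higher and 0 lower, beside 19.3% and 4.57% of all genes kept. Their median was 1.41 beside 0.433 over all genes kept, and 9 of the 12 also passed after thinning and with summed UMIs. *Fos*, a subunit of the factor AP-1, had a median of 9.44 CPM at d0 and 178 CPM at d1, with highest values of 711 and 490 CPM. Its values overlapped fully at the top but 37 of 40 d1 cells were above the d0 median, and the difference was 3.48. *Areg*, which encodes the EGF receptor ligand amphiregulin (chromosome 5, 91568641 to 91577458 on mm9, plus strand), had a median of 1.61 and a highest value of 94.7 CPM at d0, and 49.9 and 1142 CPM at d1. Cells differed widely at d1, where 13 cells were above every d0 cell and 9 below the d0 median, and the difference was 3.37. *Ereg*, a further EGF receptor ligand, differed by 2.46, *Fosb* by 2.94, and *Crem*, a CREB relative that can end the response, by 2.41. *Penk*, the enkephalin precursor, differed by 1.46 in the mean of logs, with means of 85.3 and 524 CPM, since its highest value was 1212 CPM at d0 and 8244 CPM at d1. Its medians were 60.2 and 98.2 CPM, and its difference did not pass 1 by medians, or against the d0 cells numbered 49 and above (0.45). Not every known target was high, since *Nr4a1*, a nuclear receptor induced by cAMP, differed by 0.33 and *Bdnf* by 0.05. *Nr4a2*, *Nr4a3*, *Per1* and *Sik1* were under the limit on levels.

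RefSeq promoter windows, from 250 bases before to 50 bases after a start site on GRCm38.p6, were searched on both strands for the full cAMP response element TGACGTCA and for the shorter TGACG, which each full element holds on both strands and which was added after seeing the data. The full element stood in 1.79% of 32851 windows and in 3.41% of those of genes kept, 3.13% of those of higher genes and 3.14% of those of lower genes. In the cAMP list, drawn from known CREB targets, 4 of 36 windows held the full element. The shorter letters stood in 20.8% of all windows, 32.9% of those of genes kept, 31.7% for higher genes and 23.7% for lower genes. They stood in 50% of the 36 windows of the cAMP list, and in other lists from 0% (Wnt) to 72.2% (neuropeptide and prohormone). Among the cAMP genes with these letters were *Nr4a1* and *Bdnf*, which were not higher. Stretches upstream of 4 higher genes are shown with the element in capitals, each read 5′ to 3′ on the strand of the gene. *Dusp1*, a phosphatase of MAP kinases, differed by 1.01, which did not pass the limit once the median shift of 0.433 was taken off. *Areg* and *Dusp1* held the full element, which began 61 and 143 bases before the start site. *Fos* and *Fosb* held the shorter letters, which began 66 and 60 bases before it.
Areg, chr5:91139498-91139585, plus strand: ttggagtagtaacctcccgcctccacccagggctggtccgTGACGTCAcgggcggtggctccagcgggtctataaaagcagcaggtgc
Dusp1, chr17:26508568-26508655, minus strand: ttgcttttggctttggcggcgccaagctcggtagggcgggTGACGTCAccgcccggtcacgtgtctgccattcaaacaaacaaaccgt
Fos, chr12:85473784-85473868, plus strand: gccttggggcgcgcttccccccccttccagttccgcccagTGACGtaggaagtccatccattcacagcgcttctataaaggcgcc
Fosb, chr7:19310061-19310145, minus strand: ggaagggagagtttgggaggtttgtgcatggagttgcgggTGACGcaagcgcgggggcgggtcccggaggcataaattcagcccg

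Genes of the Wnt pathway driven by beta-catenin were also mostly higher. They include the pathway's own factors and feedback inhibitors, which are used as readouts in many tissues. Of 24 genes listed, 16 were kept, of which 10 were higher and 1 lower, beside 19.3% and 4.57% of all genes kept. Their median was 1.18, and 7 of the 10 passed by all 3 measures. *Lef1*, the factor that pairs with beta-catenin on DNA (chromosome 3, 130813389 to 130927274 on mm9, plus strand), had a median of 2.87 CPM at d0 and 92.1 CPM at d1. All but 1 of the 40 d1 cells were above the d0 median, although the highest d0 cell reached 311 CPM, and the difference was 3.92. *Axin2*, a scaffold of the complex that destroys beta-catenin, had medians of 1.52 and 37.4 CPM and a difference of 3.38. After thinning, *Axin2* had a UMI in 16.9% of d0 cells and 70% of d1 cells. *Nkd1*, an inhibitor of Dishevelled, differed by 2.79, *Tcf7*, a relative of *Lef1*, by 1.95, and *Notum*, an enzyme that inactivates Wnt ligands, by 1.73. *Ccnd1*, cyclin D1, was high on both days, with medians of 144 and 629 CPM and a difference of 2.27. *Myc* differed by -0.29. *Nkd2*, which shares its function with *Nkd1*, was the 1 lower gene of the list at -1.11. The list did not include *Wisp1*, the gene with the largest fall between the days, so the counts leave it out. *Lgr5*, *Rnf43* and *Ascl2* were under the limit on levels. The letters CTTTGAT, a TCF site, were found in 3.73% of all promoter windows and in 2 of 22 windows of the listed genes.

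Retinoic acid genes were higher in smaller number. Retinoic acid receptors bind a repeated hexamer with a spacer of 5 bases (DR5), and their targets include enzymes and binding proteins that limit retinoic acid. Of 23 genes listed, 13 were kept, of which 6 were higher and 1 lower, beside 19.3% and 4.57% of all genes kept. Their median was 0.90, and 6 were higher and 1 lower by all 3 measures. *Dhrs3*, a reductase that returns retinaldehyde to retinol, had medians of 36.6 CPM at d0 and 261 CPM at d1 and a difference of 2.50. *Cyp26b1*, which degrades retinoic acid, had a highest value of 95.1 CPM at d0 and 349 CPM at d1, with medians of 0.911 and 3.72 CPM and a difference of 2.12. Its mean was 4.33 CPM at d0 and 48.5 CPM at d1, and 7 of 40 d1 cells lay above every d0 cell. *Crabp2*, a binding protein that carries retinoic acid to the nucleus, differed by 2.15 and *Stra6*, a membrane receptor for retinol binding protein, by 1.90. *Rarb*, the receptor gene that is itself a target, had 208 UMIs (181 to 238) at d0 and 726 (674 to 781) at d1, with medians of 1.02 and 7.33 CPM and a difference of 1.67, which did not pass 1 with a pseudocount of 10 or with the log of the mean. *Rara* differed by -0.08. *Cyp1b1*, an oxidase that can make retinoic acid, was lower at -1.67. *Cyp26a1* and *Stra8* were under the limit on levels. The DR5 element stood in 0.0974% of all promoter windows, among them that of *Rarb*, where it began 53 bases before the start and is shown in capitals.
Rarb, chr14:16575477-16575569, minus strand: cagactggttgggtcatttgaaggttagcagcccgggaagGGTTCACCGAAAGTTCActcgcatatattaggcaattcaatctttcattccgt

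More TGF-beta genes were lower than higher, and 11 of those kept were neither. The TGF-beta type I receptor signals through Smad factors to genes of the matrix, to its own regulators and to ligands. Of 25 genes listed, 22 were kept, of which 9 were lower and 2 higher, beside 4.57% and 19.3% of all genes kept. Their median was -0.83, and the counts were the same by all 3 measures. *Skil*, a Smad inhibitor that is itself induced, differed by -1.91 and *Ltbp2*, a matrix protein related to the binders of latent TGF-beta, by -2.13. *Postn*, a matricellular protein, had medians of 56.0 and 2.75 CPM and a difference of -2.90. *Smad7*, the inhibitory Smad, differed by -0.11 and *Pmepa1* by -0.45. The 2 higher genes were *Tgfbi*, a secreted matrix protein, at 2.62, and *Ltbp1*, which binds latent TGF-beta, at 1.84.

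More genes driven by SRF and by YAP were lower than higher, and 13 of those kept were neither. They encode smooth muscle actin, its binding proteins and secreted CCN proteins. All 26 listed genes were kept, of which 12 were lower and 1 higher, beside 4.57% and 19.3% of all genes kept. Their median was -0.87, and 12 were lower and 1 higher by all 3 measures. *Ctgf*, a YAP target of the CCN family (chromosome 10, 24315248 to 24318489 on mm9, plus strand), had a median of 106 CPM and a highest value of 1774 CPM at d0, and 3.35 and 111 CPM at d1. In 39 of 40 d1 cells it was below the d0 median, 11212 UMIs (11005 to 11421) stood against 434 (394 to 477), and the difference was -4.36. *Cyr61*, its relative, had medians of 1089 and 253 CPM and a difference of -2.27. *Acta2*, smooth muscle actin, ranged from 66.5 to 17073 CPM at d0 with a median of 2727, and from 37.1 to 3006 CPM at d1 with a median of 352. Only 2 of 40 d1 cells were above the d0 median for *Acta2*, and its difference was -2.82. *Tagln*, the actin-binding transgelin, differed by -3.32, *Amotl2*, a YAP partner, by -2.96, and *Lats2*, the kinase that restrains YAP, by -2.46. Cytoplasmic actin and its other partners moved less. *Actb* differed by -0.79, *Actg1* by 0.42, *Tpm1* by -0.20 and *Vcl* by -0.33. *Ankrd1* differed by -1.51, but its mean at d0 of 353 CPM rested on cells of up to 9156 CPM beside a median of 10.5 CPM. *Srf* itself was the higher gene, at 1.67. The CArG box, the site of SRF, was found in 8 of 25 promoter windows of the listed genes and in 1.63% of all windows, which describes a list drawn from known SRF targets. Windows with the box belonged to genes of either direction, among them *Srf*, *Actg1*, *Vcl*, *Fhl1* and *Myl9*. *Fhl1*, a LIM protein that differed by -2.53, and *Myl9*, a myosin light chain that differed by -1.94, are shown with the box in capitals, 102 and 161 bases before the start.
Fhl1, chrX:56779541-56779630, plus strand: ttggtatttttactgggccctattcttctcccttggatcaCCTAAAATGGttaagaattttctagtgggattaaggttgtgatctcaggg
Myl9, chr2:156775263-156775352, plus strand: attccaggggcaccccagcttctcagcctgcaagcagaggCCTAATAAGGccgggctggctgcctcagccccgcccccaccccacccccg

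**Figure D3:**
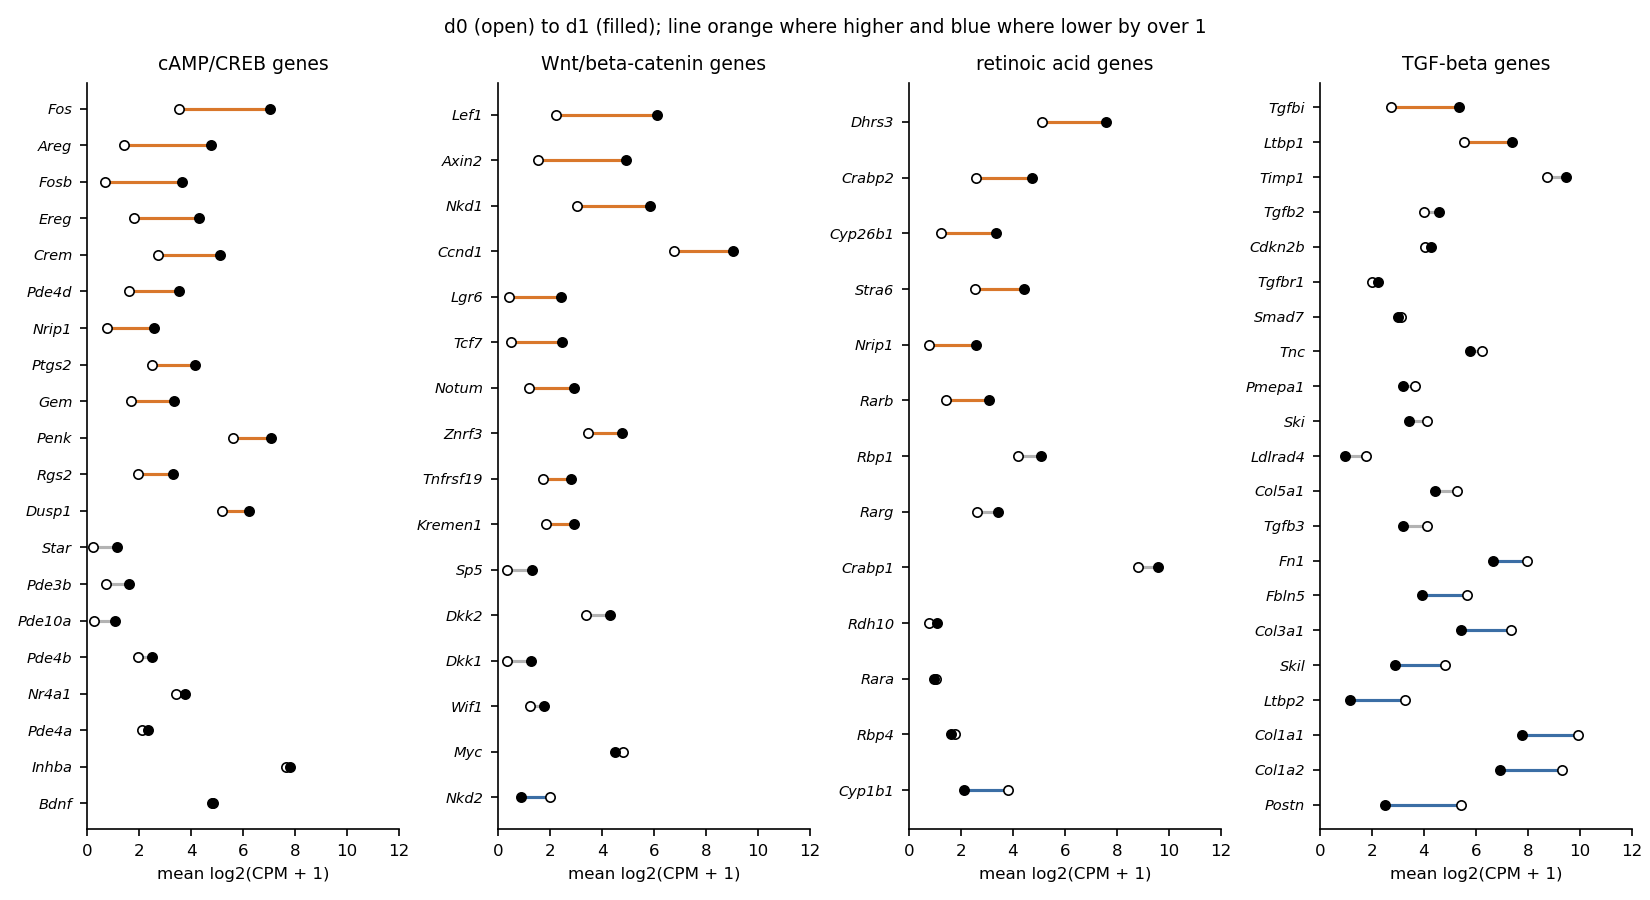
Mean log2(CPM + 1) (x axis) at d0 (open circles, 72 cells) and d1 (filled circles, 40 cells) for the genes kept of 4 lists, ordered by difference, with 21 of 22 TGF-beta genes shown, with the joining line in orange where the gene was higher and in blue where it was lower by over 1. Filled circles lie mostly to the right for cAMP, Wnt and retinoic acid genes, with 12, 10 and 6 genes higher, and mostly to the left for TGF-beta genes, with 8 of those shown lower.

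Among immediate early genes and genes fed by ERK, the kinase downstream of FGF and EGF receptors, more were higher than lower. Of 28 listed, 24 were kept, with 12 higher, 2 lower and 10 neither, beside 19.3% higher and 4.57% lower of all genes kept. Their median was 0.95, and 5 were higher and 2 lower by all 3 measures. *Spred1*, an inhibitor of Ras signaling, differed by 2.81 and *Ier3*, an early response gene, by 2.64, with medians of 32.2 and 204 CPM. *Egr1*, a zinc finger factor, had medians of 6.66 and 59.8 CPM and a difference of 2.47, which did not pass 1 with summed UMIs. *Jun*, the partner of *Fos*, differed by 2.03 and *Etv5*, an ETS factor downstream of FGF, by 2.35. *Fos* and *Fosb* are immediate early genes too, but were counted in the cAMP list and not in this one. The counts of the 2 lists therefore depend on this placement. *Dusp6* and *Spry4*, inhibitors that ERK induces, differed by 0.73 and 0.60. *Spry1*, of the same family as *Spry4*, was lower at -2.37 and *Btg2*, an antiproliferative gene that p53 and growth factors induce, at -2.59.

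BMP genes had no common direction. Of 28 listed, 16 were kept, with 3 higher, 1 lower and a median of 0.10. The shares were near the 19.3% and 4.57% of all genes kept. The ligand *Bmp2* (chromosome 2, 133377895 to 133388621 on mm9, plus strand) stood apart, with a median of 2.55 CPM and a highest value of 52.1 CPM at d0 and 33.9 and 315 CPM at d1. It was above the d0 median in 33 of 40 d1 cells, and its difference was 2.91. *Id1*, a BMP target that restrains bHLH factors, had medians of 319 and 692 CPM. Its difference of 1.39 fell under 1 once the median shift of 0.433 was taken off. *Id2* and *Id3* differed by 0.94 and 0.42 and *Id4* by -1.27. The ligand *Bmp4* differed by -0.62 and *Bmp7* by 1.02. The antagonist *Nog*, noggin, differed by -0.94 with 596 UMIs at d0 and 58 at d1.

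The fibroblast genes went both ways. Of 24 listed, 23 were kept, with 7 higher and 8 lower, beside 19.3% and 4.57% of all genes kept. Their median was -0.30, and 3 were higher and 8 lower by all 3 measures. The transcription factors in the list also differed in direction. *Twist1* (chromosome 12, 34642536 to 34644682 on mm9, plus strand) had medians of 9.48 CPM at d0 and 83.7 CPM at d1 and was above the d0 median in 38 of 40 d1 cells, with a difference of 2.76. *Twist2* had medians of 128 and 723 CPM and a difference of 2.35, and *Snai1*, a repressor known from epithelial to mesenchymal transition, differed by 2.21. *Prrx1*, a homeobox factor of limb and skull mesenchyme, differed by 1.08, which fell under 1 with summed UMIs (and in 7 other alternatives). *Zeb1* and *Snai2* differed by 0.56 and -0.17. *Osr1*, a zinc finger factor of lateral mesoderm (chromosome 12, 9581248 to 9588305 on mm9, plus strand), was lower. It had a median of 50.7 CPM and a highest value of 686 CPM at d0 and 1.76 and 173 CPM at d1, with UMIs in 86.1% of d0 cells (interval 75.9 to 93.1) and 65% of d1 cells (48.3 to 79.4). The groups overlapped, 7 d1 cells were above the d0 median, and the difference was -2.80. The PDGF receptors went opposite ways, with *Pdgfra* at 2.53 and medians of 10.5 and 75.6 CPM, and *Pdgfrb* at -2.49 and medians of 18.5 and 0 CPM. *Thy1*, a surface marker, differed by -0.58 and *Vim*, vimentin, by 0.49.

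Of the defining genes of the XEN state, *Sox17*, *Sall4*, *Foxa2* and *Gata4* were at or near 0 on both days. Of 24 XEN genes listed, 8 were kept, with 1 higher and 2 lower. *Sox17* had 1 UMI in the d0 cells and 0 in 40 d1 cells, which allows a share of up to 7.5% of cells with a UMI at d1. *Sall4* and *Foxa2* had no UMI in 72 d0 cells and 40 d1 cells, which allows up to 4.17% and 7.5% of cells with a UMI. *Gata4* had UMIs in 2.78% of d0 cells and 2.5% of d1 cells and *Sox7* in 8.33% and 10%. *Gata6* differed by 0.68, with UMIs in 31.9% and 47.5% of cells, and in 12.7% and 22.5% after thinning. *Cited1*, a transcriptional coactivator, was the 1 higher gene at 2.28. The lower genes were the basement membrane collagens *Col4a1* at -1.73 and *Col4a2* at -1.31. Of 15 pluripotency genes, 2 were kept. *Klf4* differed by -0.61 and *Nanog*, whose pseudogenes could share its reads, by -0.40, and both passed the limit after thinning, at -1.64 and -1.28.

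Genes of the extracellular matrix were lower in the largest number. Fibroblasts build the matrix from fibrillar collagens, elastic fibers and the enzymes that crosslink them. Of 31 matrix proteins listed, 30 were kept, of which 15 were lower and 2 higher with a median of -1.06. Of 19 collagens kept 9 were lower and 3 higher with a median of -0.84. Over all genes kept 4.57% were lower and 19.3% higher. By all 3 measures the same numbers, 15 and 9, were lower, whereas 1 matrix protein and 0 collagens were higher. *Lox*, the enzyme that crosslinks collagen and elastin, had a median of 366 CPM with a lowest value of 7.30 at d0 and a median of 8.39 CPM with a highest value of 116 at d1. All 40 d1 cells were below its d0 median, and the difference was -4.49. *Thbs1*, thrombospondin, had medians of 421 and 19.7 CPM and a difference of -3.74. Among collagens, *Col12a1* differed by -3.14, *Col8a1* by -2.98, *Col5a2* by -2.71, *Col1a2* by -2.39 and *Col1a1* by -2.16. *Col1a1* had medians of 1046 and 221 CPM, and 39 of 40 d1 cells were below the d0 median. The microfibril proteins *Mfap4* and *Mfap5* differed by -2.79 and -2.61, and fibrillin, *Fbn1*, by -1.20. *Col6a1*, *Col6a2* and *Col6a3*, the chains of a beaded microfilament, differed by 0.83, 0.34 and 0.10. *Spp1*, osteopontin, was higher at 2.45, with medians of 87.2 and 597 CPM and a highest value of 23116 CPM at d1. *Has2*, a hyaluronan synthase, differed by 1.54, and by 0.90 after thinning.

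Proteases and their inhibitors followed the matrix in part. Of 25 listed, 21 were kept, with 7 lower and 2 higher, and 4 and 2 by all 3 measures. The aggrecanase *Adamts5* had 2599 UMIs at d0 and 49 at d1 and differed by -2.70, *Timp3*, an inhibitor bound to the matrix, by -2.32 and *Adamts1* by -1.93. *Plat*, tissue plasminogen activator, and *Ctsl*, a lysosomal protease, differed by 1.59 and 1.32. *Mmp3*, stromelysin, differed by 0.04 although its means were 25.2 and 286 CPM, since the median was 17.6 CPM at d0 and 9.41 CPM at d1 while the highest cell reached 10090 CPM at d1.

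Cholesterol synthesis genes were lower without exception among those past the limit. They encode the enzymes from acetyl-CoA to cholesterol, are driven together by SREBP2 and are held down when sterol is plentiful. Of 26 listed, 23 were kept, of which 13 were lower and 0 higher, beside 4.57% and 19.3% of all genes kept. The other 10 were neither. The median of the list was -1.18, and 12 were lower by all 3 measures. Among those past the limit, in the order of the pathway, *Mvk*, mevalonate kinase, differed by -1.26, *Idi1*, the isomerase of isopentenyl diphosphate, by -2.93, *Fdps* by -2.28, *Fdft1* by -2.11, *Sqle* by -1.67, *Lss* by -1.63, *Cyp51* by -2.58 and *Msmo1* by -2.38. Within the limit were *Nsdhl* at -0.88, *Ebp* at -0.04 and *Hsd17b7* at 0.41, among others. *Idi1* (chromosome 13, 8884852 to 8891641 on mm9, plus strand) had a median of 131 CPM at d0 and 7.48 CPM at d1, with highest values of 543 and 141 CPM. For *Cyp51*, *Msmo1* and *Fdps* all 40 d1 cells were below the d0 median. The summed level of the list had a median of 2232 CPM at d0 and 579 CPM at d1, and no d1 cell was above the d0 median. *Insig1*, the sterol sensor that holds SREBP back, differed by -2.20. Fatty acid synthesis genes had no common direction. Of 17 genes kept, 3 were higher and 1 lower with a median of 0.09, and *Fasn*, fatty acid synthase, differed by 0.25. *Acsl4*, an acyl-CoA synthetase for arachidonic acid, was higher at 1.81 and *Fads2*, a desaturase, lower at -1.15.

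Genes of NRF2, the factor of the response to oxidants and electrophiles, were higher in a share well above that of all genes. Of 23 listed, 22 were kept, with 14 higher, 0 lower and a median of 1.42, and 10 were higher by all 3 measures. *Srxn1*, sulfiredoxin, had medians of 1.72 and 51.1 CPM and a difference of 3.10. *Txnrd1*, thioredoxin reductase, ranged from 0 to 567 CPM at d0 with a median of 91.8, and from 90.8 to 853 CPM at d1 with a median of 362, and its difference was 2.35. Genes of NADPH supply were high with them, *G6pdx* at 2.53, *Pgd* at 1.70 and *Tkt* at 1.63. Glutathione genes were as well, with *Gsr* at 2.31, *Slc7a11*, the cystine carrier, at 1.99, *Gclc* at 1.77 and *Gclm* at 1.64. *Hmox1*, heme oxygenase, which NRF2 shares with other factors, differed by 0.05 and *Ftl1*, ferritin light chain, by -0.18. Stress genes of the endoplasmic reticulum were mostly within the limit, with 2 of 28 higher, 1 lower and a median of 0.10. Within it *Ddit3*, the factor CHOP, had medians of 24.5 and 0 CPM and a difference of -3.07, while *Atf4* differed by 0.21 and *Hspa5*, the chaperone BiP, by -0.27. Among 12 heat shock genes kept, 2 were higher and 2 lower, and *Hspb1* differed by -1.62 beside *Hspd1* at 0.86.

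Cell cycle genes were higher by the mean of logs and after thinning, and less so with summed UMIs. Of 40 S phase genes kept, 19 were higher and 0 lower with a median of 0.93. Of 50 genes of G2 and mitosis kept, 17 were higher and 1 lower with a median of 0.83. Over all genes kept 19.3% were higher and 4.57% lower. After thinning, 21 of 40 S phase genes and 25 of 50 genes of G2 and mitosis were higher, with medians of 1.04 and 0.985. The share over all genes kept after thinning was 19.9%. By all 3 measures 5 S phase genes and 0 genes of G2 and mitosis were higher, and with summed UMIs the medians were 0.33 and 0.04. *Chaf1b*, a histone chaperone subunit, differed by 2.08 and *Nasp*, a histone carrier, by 1.90, with *Nasp* medians of 96.5 and 288 CPM. *Mki67* had medians of 27.6 and 70.9 CPM and a difference of 1.69, but its highest value was 391 CPM at d0 and 441 at d1, and UMIs were seen in 73.6% and 100% of cells. Summed genes of G2 and mitosis had a median of 7141 CPM at d0 and 6740 CPM at d1, with the highest cell at 20477 CPM at d0 and 14778 CPM at d1. Among genes of the p53 pathway and inhibitors of cyclin-dependent kinases more were lower than higher, and 11 of those kept were neither. Of 24 listed, 22 were kept, of which 10 were lower and 1 higher, beside 4.57% and 19.3% of all genes kept. Their median was -0.70, and 10 were lower by all 3 measures. *Cdkn1a*, the inhibitor p21, had medians of 1733 CPM at d0 and 610 CPM at d1 and a difference of -1.35, with 33 of 40 d1 cells below the d0 median. *Cdkn1c*, p57, differed by -1.92, *Fas*, a death receptor, by -1.64 and *Ccng1* by -1.07. *Mdm2*, which degrades p53, differed by -0.69, and *Cdkn1b*, p27, by 0.58.

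Cytokine genes went both ways. Of 30 cytokines and chemokines listed, 13 were kept, with 6 lower and 3 higher, the same numbers as by all 3 measures. Over all genes kept 4.57% were lower and 19.3% higher. *Ccl2*, a monocyte chemokine, ranged from 4.16 to 14061 CPM at d0 with a median of 567, and from 3.89 to 10279 CPM at d1 with a median of 85.8, with a difference of -1.85. *Cxcl12*, the ligand of CXCR4, differed by -2.31 and *Csf1*, a macrophage growth factor, by -1.89. *Il11*, of the interleukin 6 family, had medians of 0 and 10.9 CPM and a difference of 2.88, *Il33*, an alarmin, differed by 1.86 and *Cxcl1*, a neutrophil chemokine, by 1.71. Of 16 interferon and antigen presentation genes kept, 5 were lower and 1 higher with a median of -0.80. *Ifi35* differed by -1.93 and *Xaf1* by -1.53, whereas the light chain *B2m* differed by -0.77.

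Among growth factors and their receptors, 5 of 23 genes kept were higher and 5 lower, the higher share being near the 19.3% of all genes kept. Beside *Areg*, *Ereg* and *Pdgfra*, *Vegfa*, the endothelial growth factor, was higher at 1.85 and *Met*, the receptor of hepatocyte growth factor, at 1.22 (0.72 after thinning). *Gdf15*, a stress-induced ligand that p53 can drive, was lower at -1.99, and *Igf1* and its receptor *Igf1r* at -1.18 and -1.30. Of 9 genes kept of the list around IGF binding, 5 were higher and 1 lower, and 4 were higher by all 3 measures. *Igfbp4*, which sequesters IGF, had medians of 20.6 and 165 CPM and a difference of 2.88, *Igfbp5* differed by 2.05, *Htra1*, a protease that cleaves it, by 2.15, and *Stc1*, an inhibitor of the protease PAPP-A, by 2.27. *Pappa* itself differed by -1.11. Of 5 neuropeptide and prohormone genes kept of 19, 3 were higher, *Penk*, *Vgf* at 1.45 and *Nts*, neurotensin, at 1.44, and *Nts* fell under 1 after thinning.

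Most genes of general cell functions stayed within the limit. None of 35 ribosomal protein genes kept was past 1, with a range from 0.13 to 0.91 and a median of 0.54, and 1 of 33 genes of oxidative phosphorylation was higher with a median of 0.12. Of 24 genes of ribosome biogenesis, 5 were higher and 1 lower, with *Rrp1b* at 1.75 and *Bop1* at 1.72, and 0 were higher by all 3 measures, shares near the 19.3% and 4.57% of all genes kept. Of 21 genes of glycolysis and hypoxia kept, 3 were higher, among them *Ndrg1* at 1.58, and 2 lower, *Adm*, adrenomedullin, at -2.17 and *P4ha2*, a prolyl hydroxylase of collagen, at -2.06. *Dot1l*, the target of EPZ004777, differed by 0.48. In the same list of 11 chromatin genes kept, 4 were higher and 0 lower, and 0 were higher by all 3 measures. *Ezh2*, the catalytic subunit of Polycomb complex 2, differed by 1.61 and *Dnmt1*, the maintenance methyltransferase, by 1.42, neither past 1 with summed UMIs. None of 8 clock genes kept was past 1.

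**Figure D4:**
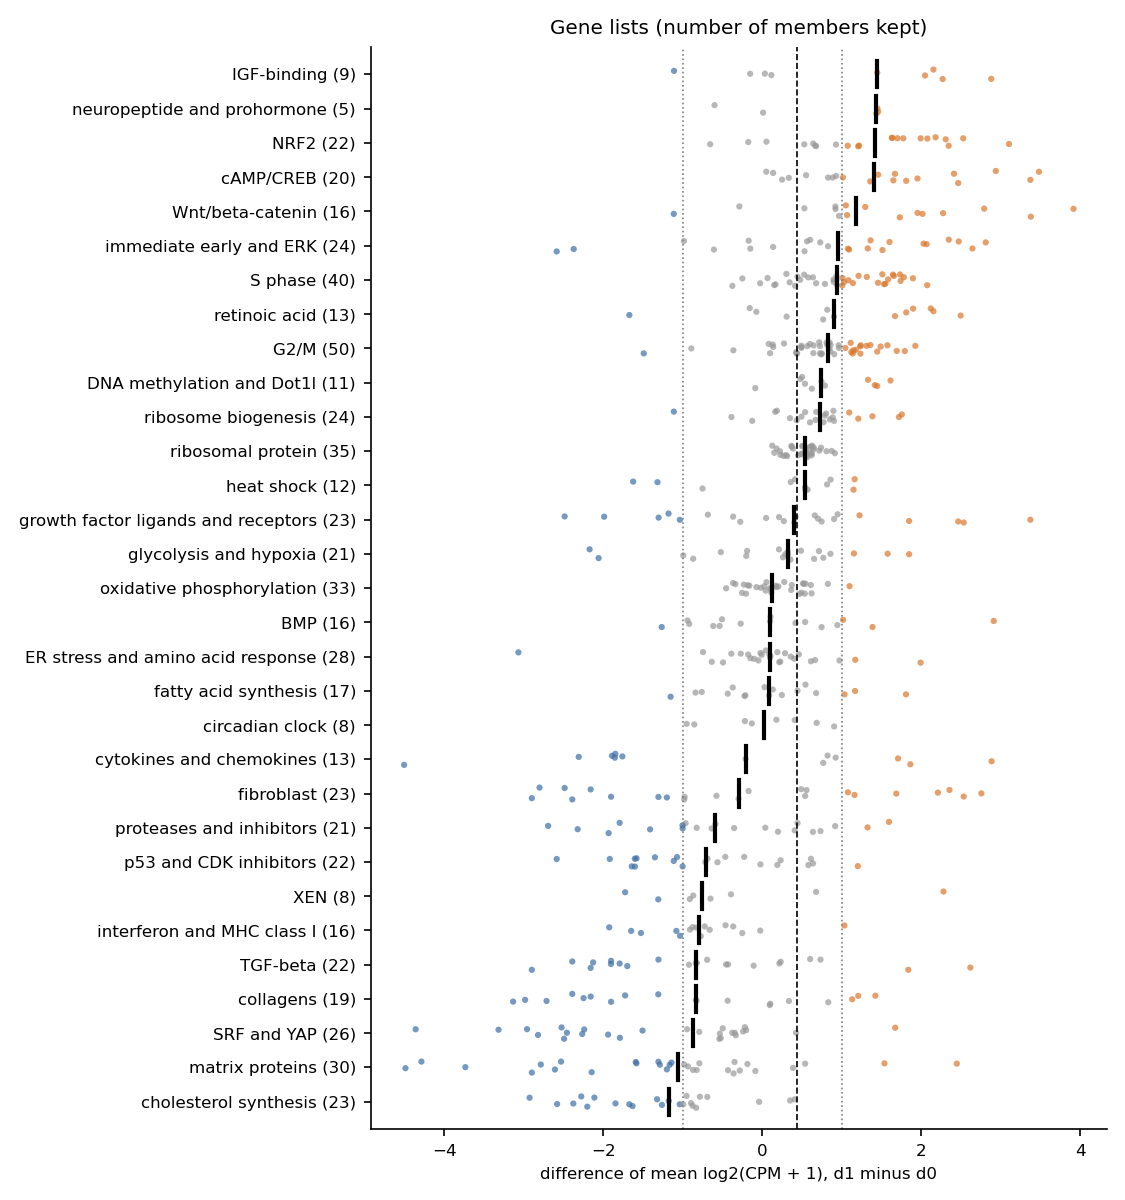
Difference of mean log2(CPM + 1), d1 minus d0 (x axis), for each gene kept of the 31 lists with at least 5 such genes (y axis, number kept in brackets), with a thick bar at the list's median, a dashed line at the median of all genes (0.433) and dotted lines at -1 and 1. Genes higher by over 1 are orange and those lower are blue. Cholesterol synthesis, with a median of -1.18, and matrix proteins, with -1.06, lie lowest. The short lists of IGF-binding (1.45) and neuropeptide and prohormone genes (1.44) lie highest, followed by NRF2 (1.42), cAMP (1.41) and Wnt (1.18) genes.

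Running numbers of cells may stand for plates or libraries, although the labels do not say so. Cells numbered 1 to 48 and 49 and above at d0 (43 and 29 cells) differed from each other by over 1 in 857 of 9076 genes kept, or 9.44%, and by over 2 in 29. At d1, cells numbered 1 to 24 and 25 and above (24 and 16 cells) differed by over 1 in 1315 of 9595 genes, or 13.7%, and by over 2 in 43. Of the genes past 1, 209 were higher and 1106 lower in the later numbers at d1, against 535 higher and 322 lower at d0. Between the days, 2253 genes, or 23.9%, were past 1 and 302 past 2. Past 1 in each of the 4 pairings of a d0 range with a d1 range were 722 of the 1822 higher and 225 of the 431 lower genes. The list counts that follow are to be read against these, and several lie near them. Of the lists, this count was 11 of 14 for NRF2 genes, 10 of 13 for cholesterol synthesis, 11 of 12 for SRF and YAP, 8 of 9 for TGF-beta, 6 of 12 for cAMP, 6 of 10 for Wnt, 5 of 6 for retinoic acid, 9 of 19 for S phase and 3 of 17 for G2 and mitosis. Among lower genes it was 9 of 15 for matrix proteins, 8 of 9 for collagens, 5 of 10 for the p53 list, 3 of 6 for cytokines, 2 of 5 for interferon and antigen presentation, 6 of 8 for fibroblast genes and 4 of 7 for proteases. Over the 4 pairings *Lef1* ran from 3.60 to 4.15, *Ctgf* from -4.47 to -4.29 and *Idi1* from -3.08 to -2.71, whereas *Fos* ran from 2.15 to 5.09 and *Ptx3* from -6.50 to -3.17. Gene UMIs per spike-in UMI had medians of 38.7 and 22.1 in the d0 ranges and 38.1 and 31.9 in the d1 ranges, so neither d1 median was above that of the first d0 range.

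The levels reached at d1 were set beside those of later time points, given as mean log2(CPM + 1). *Lef1* was at 2.22 at d0, 6.13 at d1, 7.02 at d3 and 5.89 at d12, and *Axin2* at 1.53, 4.91, 6.01 and 4.53, so both were above their d0 level in these later cells. *Areg* was at 4.78 at d1, 0.83 at d3 and 8.02 at d12. *Rarb* and *Cyp26b1* were at 3.09 and 3.36 at d1 and at 5.60 and 5.09 at d3. *Ctgf* was at 6.43 at d0, 2.07 at d1 and 0.74 at d3, and *Acta2* at 11.02, 8.20 and 6.45. *Col1a1* and *Thbs1*, at 7.78 and 4.65 at d1, were at 11.02 and 9.27 at d12, above their d0 levels of 9.94 and 8.38. *Idi1* was at 5.91 at d0, 2.98 at d1, 4.24 at d2 and 5.18 at d3. *Twist1* was at 3.48 at d0, 6.24 at d1, 7.60 at d6 and 0.59 at d20, and *Osr1* at 5.30, 2.50, 2.84 and 0. *Bmp2* was at 1.71 at d0, 4.62 at d1, 5.93 at d2 and 1.37 at d6.

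**Figure D5:**
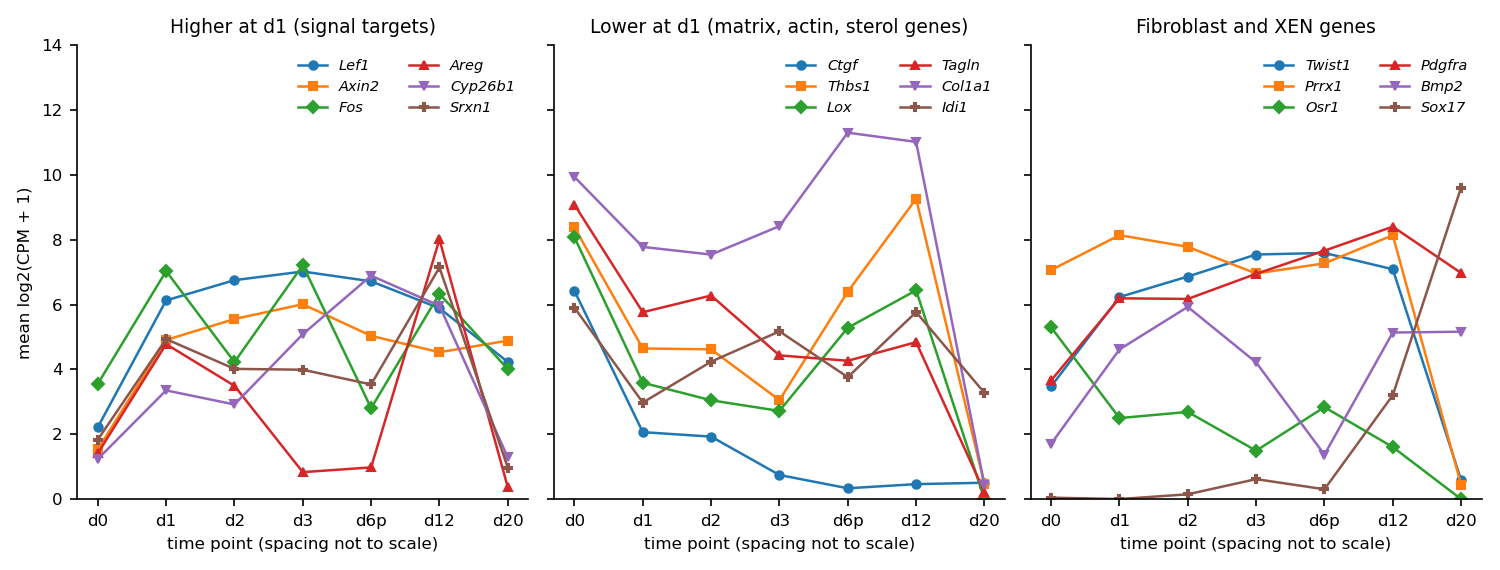
Mean log2(CPM + 1) (y axis) at d0, d1, d2, d3, d6, d12 and d20 (x axis, not to scale, d6 cells named d6p) for 6 genes higher at d1, 6 lower at d1 and 6 fibroblast and XEN genes. *Lef1* and *Axin2* stay above their d0 levels of 2.22 and 1.53, *Ctgf* stays low, at 0.51 at d20, and *Sox17*, at 0 at d1, is at 3.21 at d12 and 9.62 at d20.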

How the data were processed

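Single cells picked by hand were sequenced, and the UMI count table that the authors deposited was used, as whole-number counts without scaling. Each molecule counts once per UMI, and the reference was the mouse transcriptome of mm9. The aligner and cell filter are not given in the sources used here. Left out of the library sizes were 92 ERCC rows and 4 rows with repeated names.

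Levels, differences and limits were computed as the report states (Python 3.11.15; numpy 2.4.6; pandas 2.3.3; scipy 1.17.1). Alternative scaling factors came from edgeR 4.0.16 and DESeq2 1.42.0 in R 4.3.3. With 1 sample per day, no p-value was computed. No doublet caller was run.

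Genes were named by rule: the 20 largest differences at each end, up to 4 members with the largest absolute difference per list, and the master genes of the study. Other list members are examples chosen after their values were seen. Members and lists were chosen with earlier results of these data known. Gene positions, counted from 1, follow GENCODE M1 (mm9), and promoter sequences RefSeq on GRCm38.p6, where 113 of 161 named genes had one. Genes with near-identical copies, such as *Mt2*, are uncertain. Alternatives covered cell filters, scaling, pseudocounts, averages, limits and number ranges. Some list members are counted but not reported here by name.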

Additional observations from a re-analysis of the deposited data

How the results depend on the processing

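Against 1822 higher and 431 lower genes, the higher count was 2811 without a filter on cells, 316 with a pseudocount of 10, 3651 with one of 0.1 and 2735 with medians over cells, and 200 past a limit of 2. The lower count was 203 with a pseudocount of 10, 1732 with the log of the mean CPM, 1562 with summed UMIs, 102 past a limit of 2, 656 with d0 cells numbered 49 and above and 678 with d1 cells numbered 25 and above. The genes kept changed as well. They were 12471 with the log of the mean CPM, 12452 with summed UMIs and 7532 with medians over cells, beside 9441. Counts and shares of these alternatives are thus not changes of call on the same genes alone. Alternatives added after seeing the data gave 705 higher and 894 lower genes with the median taken off, and 722 and 225 past the limit in all 4 pairings of number ranges. The other counts were within 1.5 times. The share of calls that were higher was 45.2% with the log of the mean CPM, 47.4% with summed UMIs, 67.8% with at least 6000 genes per cell, 60.9% with a pseudocount of 10, 70.2% with d1 cells numbered 25 and above and 44.1% with the median taken off. Of 131 named genes past the limit, 104 stayed past it in all 4 pairings, and 2 changed sign, both with summed UMIs only: *Elovl6* to -0.430 and *Cryab* to 0.426. Of the medians of 32 lists, between 24 (median taken off) and 32 kept their sign in each alternative. The causes were not tested. No paired analysis was possible because cells carry no replicate number and each day is 1 sample. Depth limits genes near 0, where a UMI can be missed in shallow cells.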
